A study of Homo sapiens with 16 samples.

Results

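The HOXA genes and MEIS1 were followed in the monocytic leukaemia line THP-1 by H3K27ac ChIP-seq, which reads an acetylation of histone H3 that marks active promoters and enhancers. The members were the windows of the deposited table that carry the gene name HOXA3, HOXA4, HOXA5, HOXA6, HOXA7, HOXA9, HOXA10, HOXA11, HOXA13 or MEIS1 and lie within 50000 bp of that gene's transcription start site, which gave 17 of 151654 windows. Each window spans 1000 bp around a site of open chromatin found by ATAC-seq. HOXA5 and HOXA9 had 3 windows each, HOXA4, HOXA10, HOXA11 and HOXA13 had 2 each, and HOXA6, HOXA7 and MEIS1 had 1 each. No window carried the name HOXA3, so that gene is not described by a window of its own. The farthest member lay 7342 bp from its start. Of the 17 windows, 8 overlap another member and share tags with it. In the text a window is called by its gene and the signed distance in bp from the start site to the window, so that HOXA4 +410 lies 410 bp downstream of the start and HOXA4 -155 lies upstream of it.

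HOX genes encode homeodomain transcription factors and lie in clusters in which the order of the genes on the chromosome follows the order of their use along the body axis. HOXA9, HOXA10, HOXA11 and HOXA13 form the Abdominal-B class at the posterior end of the cluster, and MEIS1 belongs to the TALE class of homeodomain proteins, which bind DNA together with HOX and PBX proteins. In leukaemias with an MLL (KMT2A) fusion, the fusion protein is known to hold HOXA7, HOXA9, HOXA10 and MEIS1 active in cells that should be leaving the progenitor state, and THP-1 carries the KMT2A-MLLT3 fusion.

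The 4 groups were WT cells, labelled as carrying Cas9 only, and USP18KO cells, edited by CRISPR, each untreated or given IFNα at 1000 U/ml for 6 h, with 2 libraries per group. USP18 removes the ubiquitin-like protein ISG15 from other proteins and restrains type I interferon signalling at its receptor. All groups share the KMT2A-MLLT3 fusion of the line. Knockout lines were grown from sorted single cells, the labels do not say whether both USP18KO libraries came from 1 clone, and an effect of losing USP18 and a difference between clones cannot be told apart. The tag directories held 24712371 to 30501089 tags per library, of which 36.1% to 42.5% fell into the windows. The window at the USP18 start carried 7.54 to 8.40 CPM (tags scaled by library size and TMM factor) without IFNα in both genotypes, and a level of H3K27ac there does not check the knockout. Of the monocytic markers, 7 of 8 had a window at their start and 5 exceeded 10 CPM in untreated WT cells, while 2 of 5 lymphoid, 0 of 5 erythroid and 1 of 4 epithelial markers had one.

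The sequences before the start sites of 4 HOXA genes are shown because the H3K27ac at HOXA4 and HOXA7 fell with IFNα in USP18KO cells while that at the HOXA9 start and at HOXA11 did not pass the test. Each run holds the 250 bases upstream of a RefSeq transcript start (GRCh38.p14), written 5′ to 3′ on the minus strand, on which the HOXA genes lie. Capitals mark a match to TGACAG, the core recognised by MEIS proteins. The stretches were chr7:27130758-27131007, chr7:27156676-27156925, chr7:27165538-27165787 and chr7:27185233-27185482. The HOXA7 stretch lies outside the HOXA7 +533 window, where the fall was measured.
HOXA4: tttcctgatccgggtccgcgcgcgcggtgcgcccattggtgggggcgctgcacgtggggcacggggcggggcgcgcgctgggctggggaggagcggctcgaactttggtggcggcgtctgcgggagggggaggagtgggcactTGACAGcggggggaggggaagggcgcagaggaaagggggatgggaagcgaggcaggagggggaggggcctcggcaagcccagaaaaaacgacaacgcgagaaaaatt
HOXA7: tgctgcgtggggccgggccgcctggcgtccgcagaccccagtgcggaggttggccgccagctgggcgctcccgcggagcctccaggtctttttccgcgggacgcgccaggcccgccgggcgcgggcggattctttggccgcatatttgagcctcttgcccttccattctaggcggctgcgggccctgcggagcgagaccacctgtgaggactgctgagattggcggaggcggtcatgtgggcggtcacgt
HOXA9: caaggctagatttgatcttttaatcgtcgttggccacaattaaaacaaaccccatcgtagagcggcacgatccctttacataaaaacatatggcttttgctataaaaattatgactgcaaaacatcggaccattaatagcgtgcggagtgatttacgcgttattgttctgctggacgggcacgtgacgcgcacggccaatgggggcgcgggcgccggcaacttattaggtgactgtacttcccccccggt
HOXA11: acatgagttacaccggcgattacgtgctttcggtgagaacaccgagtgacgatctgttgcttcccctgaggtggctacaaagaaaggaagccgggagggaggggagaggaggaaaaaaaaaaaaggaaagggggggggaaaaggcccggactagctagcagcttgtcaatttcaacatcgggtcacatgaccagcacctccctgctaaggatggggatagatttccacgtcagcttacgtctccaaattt

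Both strands of every member window were searched for TGACAG, for TGATTNAT (a site bound jointly by PBX and HOX proteins), for TGANTCA (AP-1) and for GAAANNGAA (the core of the interferon-stimulated response element). TGACAG was present in 7 of 17 member windows, against 39.4% of the tested windows within 3000 bp of a start and 49.0% of all tested windows. The PBX and HOX composite matched in 1 member window, HOXA9 -18, against 5.96% of the windows near a start and 12.5% of all. AP-1 matched in 1 member window, that of MEIS1, against 18.1% and 31.0%. The interferon element core matched in 2 member windows, HOXA5 +1558 and MEIS1 -320, against 23.4% and 32.4%, and the 8 windows whose H3K27ac fell with IFNα in USP18KO cells held no match, which says only that these letters are not in them. In the 250 bases before the start, TGACAG matched at 13.0% of 35116 RefSeq promoters, and among the HOXA promoters matched to RefSeq it occurred at HOXA4. The matched sites of 4 members are shown with 15 bases on each side, as examples of what lies under the HOXA4, HOXA7 and HOXA9 windows.
HOXA4 +410, chr7:27130859-27130864, minus strand: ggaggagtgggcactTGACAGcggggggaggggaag
HOXA7 +533, chr7:27155827-27155832, plus strand: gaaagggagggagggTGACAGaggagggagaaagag
HOXA9 +3940, chr7:27162048-27162053, minus strand: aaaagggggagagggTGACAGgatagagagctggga
HOXA9 -18, chr7:27165852-27165859, minus strand, PBX and HOX composite in capitals: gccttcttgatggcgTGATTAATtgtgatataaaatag
The member windows were rich in GC, with a median of 61.7% and a range of 50.7% to 75.4%, close to the median of 60.2% for the tested windows near a start.

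Among the member windows, H3K27ac in untreated WT cells was highest in the middle of the cluster. HOTTIP +1077, a window of a noncoding RNA next to HOXA13 and not a member, had 37.8 and 41.8 CPM. HOXA10, a factor that acts beside HOXA9 in myeloid progenitors, carried the top member window, HOXA10 +689 (chr7:27173147-27174147, an exon), with 53.0 and 51.4 CPM in the 2 libraries, above 96.1% of all tested windows within 3000 bp of a start. HOXA9, the factor most closely tied to MLL-fusion leukaemia, had 34.6 and 30.3 CPM at its start (HOXA9 -18, chr7:27165048-27166048). HOXA11, which patterns the forearm, had 34.7 and 30.7 CPM at HOXA11 +355 and 30.3 and 29.7 CPM at HOXA11 -42. HOXA13, which patterns the hand and foot, had 15.6 and 21.2 CPM near its start and 25.6 and 23.9 CPM at a window annotated as intergenic, 7342 bp downstream of its start. Since all windows have the same length, these levels can be compared directly: HOXA10 +689 stood above every other member in both libraries, while HOXA9 -18 and HOXA11 +355 did not separate.

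The genes from HOXA4 to HOXA7 carried less. HOXA4 had 11.3 and 10.4 CPM at HOXA4 +410 (chr7:27129870-27130870, an exon) and 11.0 and 11.1 CPM at its start. The 3 windows of HOXA5, a factor with roles in lung and myeloid development, ranged from 3.07 to 6.11 CPM. HOXA7, a gene usually switched on together with HOXA9 in these leukaemias, had 4.30 and 3.95 CPM (chr7:27155644-27156644). The window named HOXA6, HOXA6 -3207, lay upstream of the HOXA6 start, with 6.55 and 5.48 CPM, and it contained all 300 bases of a RefSeq promoter entry of HOXA3, so it covers an annotated start of that gene. The second HOXA10 start (HOXA10 +320) had 1.43 and 2.33 CPM, the lowest of the HOXA windows.

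MEIS1 was close to empty. Its only window, at the start (MEIS1 -320, chr2:66434580-66435580), held 3 and 8 tags in untreated WT cells, 4.5 and 6 with IFNα, 5 and 13.5 in untreated USP18KO cells and 4 and 6 with IFNα. The groups overlapped, no library exceeded 1.34 CPM, and the untreated WT mean of 0.513 ± 0.291 CPM (SD, n = 2) stood above 2.98% of the tested windows within 3000 bp of a start. The window did not reach 10 counts in 2 libraries, so it was not tested and 16 of the 17 members, all of them HOXA windows, entered the tests.

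**Figure D1:**
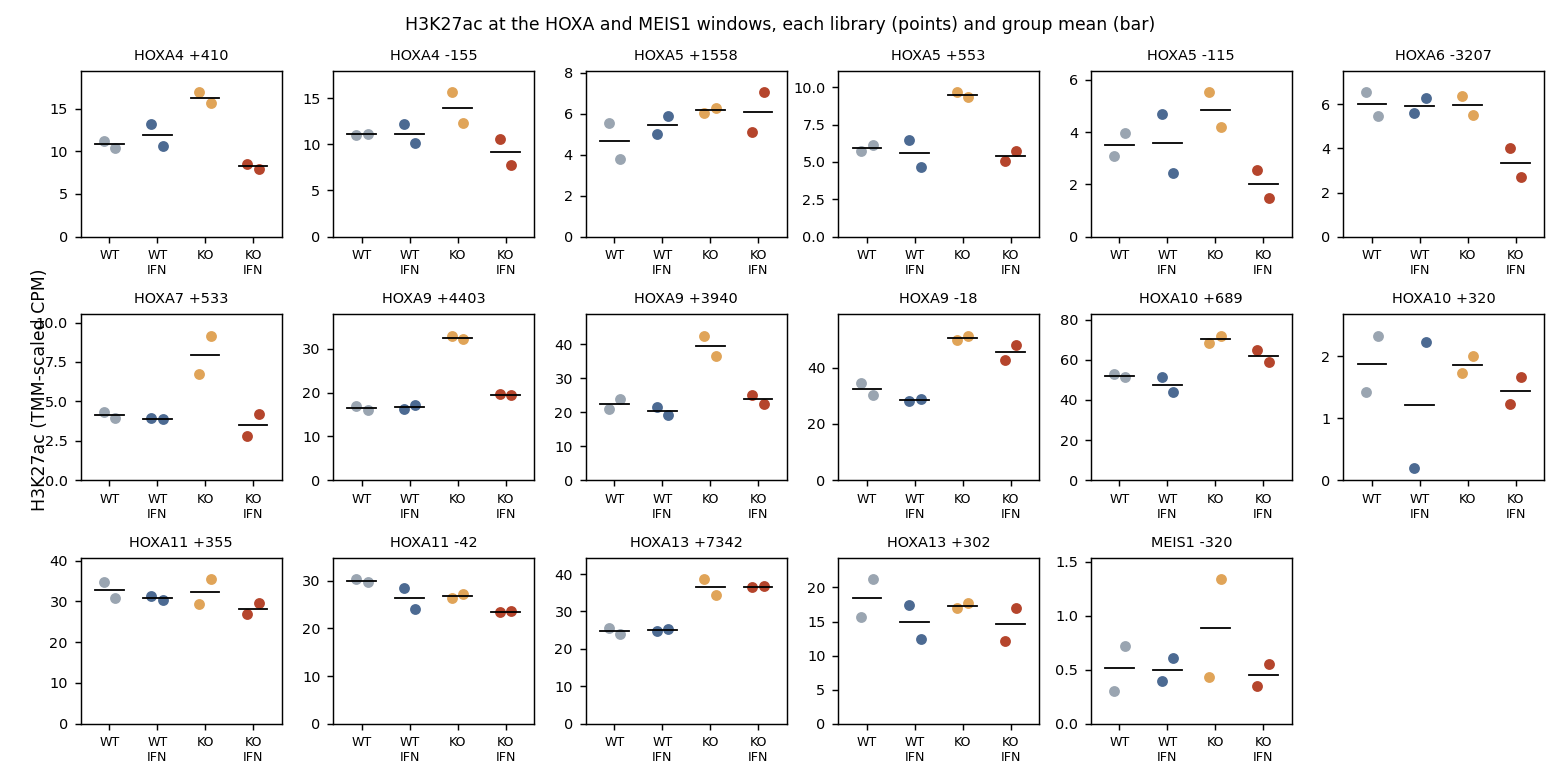
TMM-scaled H3K27ac in CPM (y axis, each panel with its own scale from 0) at the 17 windows, for WT and USP18KO (KO) cells untreated or with IFNα. Points are the 2 libraries of a group and bars their mean. HOXA4 +410, HOXA5 +553, HOXA7 +533 and the HOXA9 +4403 and +3940 windows are highest in untreated USP18KO cells, while MEIS1 does not exceed 1.34 CPM in any library.

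No change of H3K27ac with IFNα was detected at the HOXA windows in WT cells. None of the 16 tested windows passed an adjusted p of 0.05 (quasi-likelihood test of edgeR, adjusted by Benjamini-Hochberg for the 123276 windows tested), none had an unadjusted p under 0.05, and DESeq2 called 0. Over all tested windows the same comparison called 0.648% higher and 0.148% lower, or 0.383% when a 2-fold change was also required. At HOXA9 -18 the libraries stood at 34.6 and 30.3 CPM without and 28.1 and 28.8 CPM with IFNα, a log2 fold change of -0.19 with a 95% interval of -0.41 to 0.038. At HOXA4 +410 they stood at 11.3 and 10.4 CPM without and 13.1 and 10.7 CPM with IFNα, with a log2 fold change of 0.14 and an interval of -0.19 to 0.47. The median of the members was -0.081 beside -0.013 over all tested windows. At HOXA10 +320, where 1 WT library with IFNα held 2 tags, the interval ran from -1.55 to 0.23 and still held a fall of more than 2-fold. The other WT library with IFNα held 21.5 tags there, so these libraries disagreed.

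In USP18KO cells H3K27ac fell with IFNα at most member windows between HOXA4 and the 3′ end of HOXA9, and no tested member rose. Of the 16 tested windows, 8 fell at an adjusted p under 0.05 (edgeR's quasi-likelihood test), against 11.2% of all windows lower and 12.9% higher and 11.0% of those within 3000 bp of a start lower. Some of these 8 windows overlap and share tags, so they are not 8 separate calls. A fall of more than 2-fold with that adjusted p was met by 2 windows, HOXA5 -115 and HOXA7 +533, against 11.5% of all windows in either direction. The median log2 fold change of the members was -0.48 beside -0.01 over all tested windows and 0.033 over those within 3000 bp of a start. In bulk chromatin, fewer cells carrying the mark and less of it per cell cannot be told apart.

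At the genes from HOXA4 to HOXA7, 6 of 7 windows fell. HOXA4 +410 overlaps HOXA4 -155, and HOXA5 +553 overlaps HOXA5 -115, so each pair shares tags and is not 2 separate calls. HOXA4 +410 went from 16.9 and 15.6 CPM in untreated USP18KO cells to 8.51 and 7.97 CPM with IFNα, a log2 fold change of -0.98 ± 0.17 (SE, n = 2 per group, edgeR adjusted p = 1.11e-06). HOXA7 +533 went from 6.73 and 9.16 to 2.81 and 4.17 CPM (-1.18 ± 0.23, edgeR adjusted p = 3.04e-05). The untreated and IFNα groups of USP18KO cells did not overlap at either window. Their mean with IFNα was below that of untreated WT cells at both, a pair of groups that was not tested. At HOXA7 +533 that pair overlapped, with 4.30 and 3.95 CPM in untreated WT cells. At the HOXA5 start, HOXA5 -115 went from 5.52 and 4.20 to 2.54 and 1.48 CPM (-1.27 ± 0.30, edgeR adjusted p = 4.72e-04), and HOXA5 +553 went from 9.67 and 9.35 to 5.09 and 5.74 CPM (-0.81 ± 0.20, edgeR adjusted p = 0.00106). The values at HOXA5 -115 rest on 64.5 and 44 tags without and 29 and 16 tags with IFNα. HOXA5 +1558, in an intron, was the exception, with 6.04 and 6.30 CPM without and 5.09 and 7.04 CPM with IFNα and overlapping groups. HOXA4 -155 (-0.60 ± 0.17, edgeR adjusted p = 0.00453) and HOXA6 -3207 (-0.82 ± 0.24, edgeR adjusted p = 0.00664) also fell, but leaving out untreated USP18KO replicate 1 took their edgeR adjusted p to 0.146 and 0.0730, and leaving out USP18KO replicate 2 with IFNα took it to 0.144 and 0.160.

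HOXA9 fell at its 3′ end, and its start did not pass the test. The overlapping windows HOXA9 +4403 (chr7:27160627-27161627, intergenic) and HOXA9 +3940 (chr7:27161090-27162090, at the transcription end) share tags and fell together, from 33.0 and 32.1 to 19.6 and 19.5 CPM (-0.74 ± 0.12, edgeR adjusted p = 1.18e-06) and from 42.6 and 36.7 to 25.3 and 22.4 CPM (-0.73 ± 0.12, edgeR adjusted p = 4.30e-07). At the HOXA9 start the libraries stood at 50.0 and 51.3 CPM without and 42.6 and 48.2 CPM with IFNα, and the log2 fold change of -0.16 (95% interval -0.36 to 0.044) did not pass the test. The same held at HOXA10 +689 (68.4 and 72.0 against 64.9 and 59.1 CPM, log2 -0.18, interval -0.36 to 0.0074) and at HOXA13 +7342 (38.6 and 34.4 against 36.5 and 36.8 CPM, log2 0.003, interval -0.21 to 0.22). From HOXA9 -18 to HOXA13 +302 none of the windows passed, and with library totals in place of TMM the windows HOXA9 -18, HOXA10 +689, HOXA11 +355 and HOXA11 -42 did, each with a log2 fold change between -0.32 and -0.29.

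**Figure D2:**
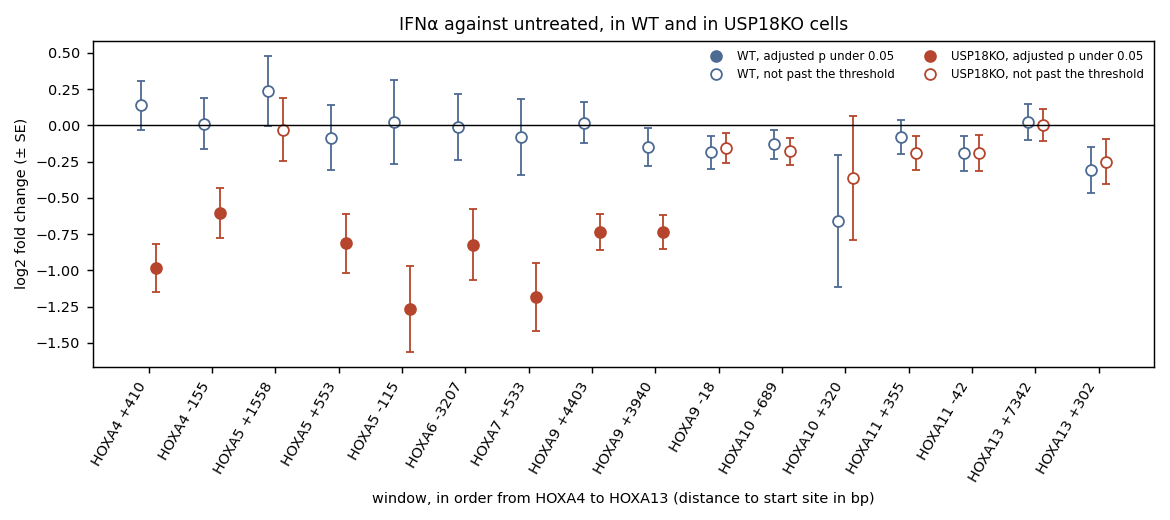
Log2 fold change of H3K27ac with IFNα against untreated (y axis, ± SE) at the 16 tested windows in genomic order (x axis), in WT (blue) and USP18KO (red) cells. Filled points passed an adjusted p of 0.05 in edgeR's quasi-likelihood test. All WT points are open, and the 8 filled USP18KO points run from HOXA4 +410 to HOXA9 +3940, with HOXA5 +1558 open among them.

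The IFNα effect itself differed between the genotypes at 5 of the 16 windows, in each case lower in USP18KO cells (edgeR's interaction contrast, adjusted p under 0.05), while none was higher. Over all windows 5.24% were lower and 6.72% higher in this contrast, and 7.16% also passed 2-fold, which 3 members did. HOXA4 +410 had a difference of -1.12 ± 0.24 on the log2 scale (edgeR adjusted p = 2.48e-04) and HOXA9 +4403 had -0.75 ± 0.19 (edgeR adjusted p = 0.00228). Both passed in every one of the 15 alternative settings tried. HOXA9 +3940 (-0.59 ± 0.18, edgeR adjusted p = 0.0161), HOXA7 +533 (-1.10 ± 0.36, edgeR adjusted p = 0.0260) and HOXA5 -115 (-1.29 ± 0.42, edgeR adjusted p = 0.0281) did not pass with DESeq2, and they passed in 10, 8 and 10 of the 15 settings. No window from HOXA9 -18 to HOXA13 +302 passed. At HOXA10 +689 the difference was -0.047 with a 95% interval of -0.32 to 0.22.

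Without IFNα, USP18KO cells carried more H3K27ac than WT cells over much of the cluster. Of the 16 tested windows 8 were higher and 0 lower at an adjusted p under 0.05 (edgeR's quasi-likelihood test), against 16.9% of all windows higher and 16.7% lower, and against 37.1% higher and 9.62% lower of those within 3000 bp of a start. No member passed 2-fold with that adjusted p, which 16.5% of all windows did in either direction. The median of the members was 0.45, beside -0.02 over all tested windows but 0.31 over the windows within 3000 bp of a start, so other starts had shifted upward as well. The untreated USP18KO libraries are shared by this comparison and by the IFNα comparison within USP18KO cells: a high value in them raises the one and lowers the other.

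HOXA9 was higher in USP18KO cells at all 3 windows. HOXA9 +4403 stood at 17.0 and 16.0 CPM in WT and 33.0 and 32.1 CPM in USP18KO cells (0.98 ± 0.13 on the log2 scale, edgeR adjusted p = 9.62e-10), a 1.98-fold difference with no overlap. HOXA9 +3940 stood at 21.1 and 24.1 CPM in WT and 42.6 and 36.7 CPM in USP18KO cells (0.81 ± 0.12, edgeR adjusted p = 4.14e-08), and the start, HOXA9 -18, at 34.6 and 30.3 CPM in WT and 50.0 and 51.3 CPM in USP18KO cells (0.65 ± 0.11, edgeR adjusted p = 6.57e-07). HOXA7 +533 was higher by 0.94 ± 0.23 (edgeR adjusted p = 6.05e-04), from 4.30 and 3.95 to 6.73 and 9.16 CPM. These 4 windows passed in all 16 alternative settings.

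The other 4 calls depended on the scaling. At HOXA5 +553 the call was also lost in a fit without untreated WT replicate 1 (log2 0.64). HOXA4 +410 (0.59 ± 0.16, edgeR adjusted p = 0.00206), HOXA5 +553 (0.68 ± 0.20, edgeR adjusted p = 0.00503), HOXA10 +689 (0.43 ± 0.10, edgeR adjusted p = 1.92e-04) and HOXA13 +7342 (0.57 ± 0.12, edgeR adjusted p = 4.17e-05) were higher in USP18KO cells with no overlap between the groups. When TMM was computed over the windows within 3000 bp of a start, a setting added after seeing the data that moved the median of all windows to -0.33, their log2 fold changes became 0.28, 0.37, 0.11 and 0.25 and none passed. In that setting HOXA11 +355 (-0.33), HOXA11 -42 (-0.47) and HOXA13 +302 (-0.41) passed as lower. With the scaling over all windows those 3 did not pass: HOXA11 +355 stood at 34.7 and 30.7 CPM in WT against 29.3 and 35.4 CPM in USP18KO cells, and HOXA11 -42 at 30.3 and 29.7 CPM against 26.4 and 27.3 CPM. A scaling moves all windows together, so the gap between the HOXA9 and HOXA11 log2 fold changes was nearly the same in both settings. That gap itself was not tested.

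With IFNα, the USP18KO cells differed from WT cells upward at some HOXA windows and downward at others. The shares were near those over all windows, but the share higher was below that of windows near a start. Of the 16 windows 3 were higher and 3 lower at an adjusted p under 0.05 (edgeR's quasi-likelihood test), against 21.2% higher and 19.4% lower over all windows and 40.5% and 12.4% over those within 3000 bp of a start, and no member passed 2-fold, against 24.8% of all. The higher windows were HOXA9 -18 (28.1 and 28.8 CPM in WT, 42.6 and 48.2 in USP18KO, log2 0.67 ± 0.11, edgeR adjusted p = 2.64e-07), HOXA10 +689 (51.4 and 43.8 CPM in WT, 64.9 and 59.1 in USP18KO, log2 0.38 ± 0.10, edgeR adjusted p = 8.31e-04) and HOXA13 +7342 (24.8 and 25.4 CPM in WT, 36.5 and 36.8 in USP18KO, log2 0.54 ± 0.12, edgeR adjusted p = 5.33e-05). The lower windows were HOXA4 +410 (13.1 and 10.7 CPM in WT, 8.51 and 7.97 in USP18KO, log2 -0.53 ± 0.18, edgeR adjusted p = 0.0100), HOXA5 -115 (4.71 and 2.44 CPM in WT, 2.54 and 1.48 in USP18KO, log2 -0.82 ± 0.32, edgeR adjusted p = 0.0310) and HOXA6 -3207 (5.59 and 6.30 CPM in WT, 4.03 and 2.69 in USP18KO, log2 -0.81 ± 0.25, edgeR adjusted p = 0.00492). At HOXA5 -115 the groups overlapped. DESeq2 called 3 higher and 1 lower, with an adjusted p of 0.0509 at HOXA4 +410 and 0.137 at HOXA5 -115. HOXA9 -18 passed in all 16 alternative settings. Each of the other 5 lost its call in at least 1 of them. Without WT replicate 1 with IFNα the adjusted p by edgeR was 0.194 at HOXA4 +410 and 0.674 at HOXA5 -115. Without WT replicate 2 with IFNα it was 0.0610 at HOXA10 +689 and 0.0568 at HOXA6 -3207. Without USP18KO replicate 2 with IFNα it was 0.283 at HOXA5 -115 and 0.109 at HOXA6 -3207. With TMM over the windows near starts it was 0.838 at HOXA10 +689 and 0.187 at HOXA13 +7342. At HOXA9 +4403 and +3940, which separated the untreated genotypes most clearly, the log2 fold changes with IFNα were 0.23 and 0.23 and did not pass.

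**Figure D3:**
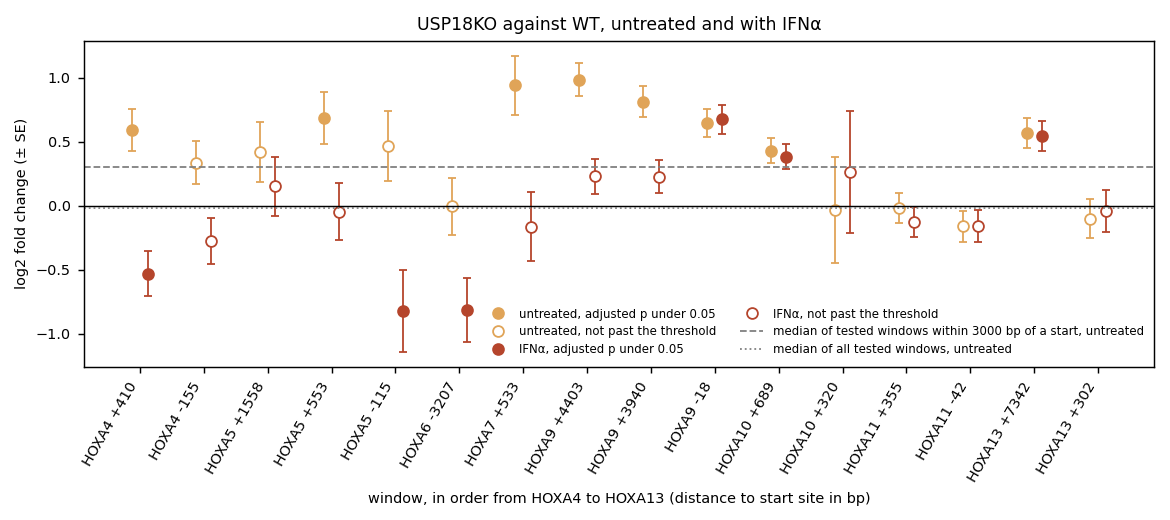
Log2 fold change of H3K27ac in USP18KO against WT cells (y axis, ± SE) at the 16 tested windows in genomic order (x axis), untreated (orange) and with IFNα (red). Filled points passed an adjusted p of 0.05 in edgeR's quasi-likelihood test. The dashed line is the untreated median of tested windows within 3000 bp of a start (0.31) and the dotted line that of all tested windows. The untreated HOXA7 and HOXA9 points lie above the dashed line and the HOXA11 points below it.

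Taking the 4 groups in order of level, HOXA9 -18 read 50.7 ± 0.951 CPM (SD, n = 2) in untreated USP18KO cells, 45.4 ± 3.93 with IFNα, 32.4 ± 3.05 in untreated WT cells and 28.4 ± 0.553 with IFNα. The genotypes separated with either treatment, and the treatments within a genotype did not pass the test. HOXA9 +4403 read 32.6 ± 0.584 CPM in untreated USP18KO cells and then 19.5 ± 0.131, 16.7 ± 0.548 and 16.5 ± 0.705 CPM in USP18KO with IFNα, WT with IFNα and untreated WT cells. Untreated USP18KO cells stood apart, while the IFNα groups of the genotypes, and the treatments in WT cells, did not differ by the test. HOXA4 +410 read 16.3 ± 0.901, 11.9 ± 1.76, 10.8 ± 0.591 and 8.24 ± 0.380 CPM in untreated USP18KO, WT with IFNα, untreated WT and USP18KO cells with IFNα so that the USP18KO groups held both ends of the order. The WT groups did not differ by the test, and untreated WT cells were not tested against USP18KO cells with IFNα. HOXA13 +7342 passed between the genotypes and not between the treatments, with 24.7 ± 1.19 and 25.1 ± 0.401 CPM in WT against 36.5 ± 2.93 and 36.6 ± 0.215 CPM in USP18KO cells. Summed over the 7 windows of HOXA4 to HOXA7, H3K27ac was 46.1 ± 1.88 CPM in untreated WT cells, 47.5 ± 4.98 with IFNα, 64.7 ± 3.12 in untreated USP18KO cells and 37.8 ± 1.27 with IFNα, with shared tags counted in each overlapping window.

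The list of neighbours and antisense RNAs of the cluster had 7 tested windows within 3000 bp of a start, of which 4 were higher, 3 of them more than 2-fold, and 1 lower in untreated USP18KO cells, and none passed with IFNα in either genotype. Of all tested windows within 3000 bp of a start, 37.1% were higher and 9.62% lower in untreated USP18KO cells. HOTAIRM1, an antisense RNA at the anterior end of the cluster that is known from myeloid differentiation, had 3 windows. They overlap and share tags, and they were the 3 that passed 2-fold, so these calls come from 1 locus. At HOTAIRM1 +390 the mean rose from 5.23 ± 0.414 CPM in untreated WT to 17.5 ± 2.46 CPM in untreated USP18KO cells (1.74 ± 0.18 on the log2 scale, edgeR adjusted p = 2.41e-13), beside at most 0.98 at the HOXA windows. With IFNα it stood at 18.5 ± 0.530 CPM in USP18KO cells (0.082 ± 0.15, edgeR adjusted p = 0.774), while HOXA4, the next member along the cluster, fell. HOTTIP, a long noncoding RNA transcribed away from the HOXA13 start, went the other way at HOTTIP +1077, from 39.8 ± 2.82 to 30.9 ± 1.54 CPM (-0.37 ± 0.11, edgeR adjusted p = 0.00587). The window named HOXA11-AS overlaps HOXA13 +7342 and was higher in untreated USP18KO cells too (0.73 ± 0.14). The 3 windows named HOXA-AS3, between HOXA4 and HOXA5, had group means of 1.68 to 2.98 CPM and passed in no contrast.

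**Figure D4:**
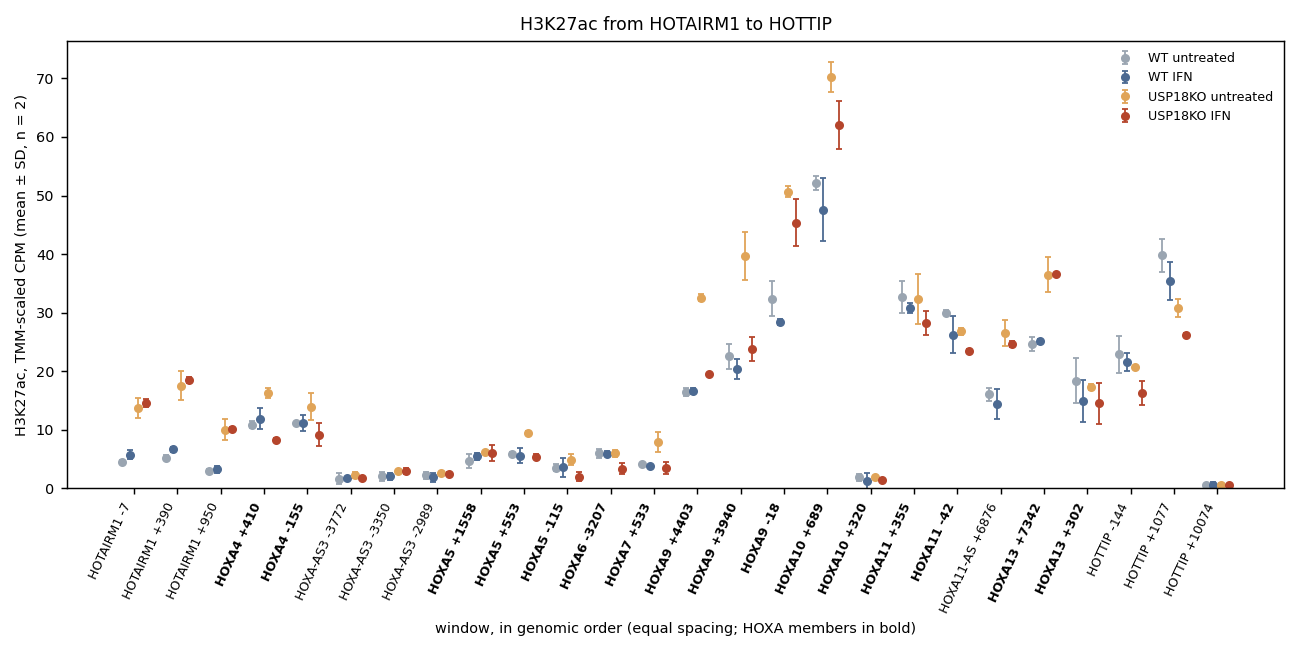
Mean H3K27ac (y axis, TMM-scaled CPM ± SD, n = 2) at every window from HOTAIRM1 to HOTTIP in genomic order (x axis, equal spacing), for the 4 groups. HOXA members are in bold. Untreated USP18KO cells are highest from HOXA7 +533 to HOXA10 +689, untreated WT cells are highest at HOXA11 -42 and HOTTIP +1077, and both USP18KO groups lie above both WT groups at HOTAIRM1.

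Further lists of related genes were described by their windows within 3000 bp of a start. Together with the neighbours they held 125 tested windows in 6 lists. IFNα in WT cells passed the test at 0 of them (edgeR's quasi-likelihood test, while 7 had an unadjusted p under 0.05, and DESeq2 called 0). With IFNα in USP18KO cells 20 (16.0%) were higher and 9 (7.20%) lower, near the 17.0% and 11.0% of all tested windows within 3000 bp of a start. The IFNα effect was higher in USP18KO than in WT cells at 7 (5.60%) and lower at 1 (0.800%), beside 8.26% and 4.69% of those windows. In untreated USP18KO cells 61 (48.8%) were higher and 11 (8.80%) lower, beside 37.1% and 9.62%. Of the other HOX clusters, which are HOXB, HOXC and HOXD, 17 windows were tested, and IFNα in USP18KO cells raised 3 and lowered 0, while in untreated USP18KO cells 2 were higher and 1 lower. Of the 3 that rose, 2 passed 2-fold. The smallest adjusted p was at HOXB3 -723, which rose by 1.74 ± 0.40 (edgeR adjusted p = 3.32e-04) at a low level, from 0.895 ± 0.321 to 3.05 ± 0.646 CPM. HOXB4, a factor of blood stem cells, rose by 0.48 ± 0.17 (edgeR adjusted p = 0.0232) from 9.91 ± 0.828 to 13.8 ± 1.17 CPM, the opposite direction to HOXA4. HOXA4 and HOXB4 are paralogs, and the difference between their changes was not tested.

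The HOX cofactors of the TALE class, which are the PBX, MEIS and PKNOX proteins other than MEIS1, had 11 tested windows. In untreated USP18KO cells 4 were higher and 1 lower, beside 37.1% and 9.62% of all tested windows within 3000 bp of a start. With IFNα in USP18KO cells 1 rose and 2 fell, beside 17.0% and 11.0%. PBX2, a partner of HOX proteins on DNA, had 71.0 ± 1.40 CPM in untreated WT cells, and rose with IFNα in USP18KO cells by 0.48 ± 0.09 (edgeR adjusted p = 1.19e-05). MEIS2, a close relative of MEIS1, had 15.0 ± 1.45 CPM at its start in untreated WT cells, well above MEIS1, and fell with IFNα in USP18KO cells by 0.46 ± 0.15 on the log2 scale (edgeR adjusted p = 0.0114).

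The MLL complex and the partners of its fusions had 26 tested windows, of which 19 were higher and 1 lower in untreated USP18KO cells, and their median log2 fold change was 0.42. WDR5, a subunit that reads histone H3 for the MLL complex, was higher by 1.09 ± 0.10 (edgeR adjusted p = 2.18e-15), and AFF4, a scaffold of the super elongation complex, by 1.01 ± 0.12 (edgeR adjusted p = 5.45e-11). With IFNα in USP18KO cells 5 rose and none fell, AFF1 by 0.57 ± 0.09 (edgeR adjusted p = 2.83e-07). The Polycomb proteins, which repress HOX clusters, had 24 tested windows with 14 higher and 0 lower in untreated USP18KO cells (median 0.42), and 3 lower with IFNα in them. Both medians stand beside 0.31 over all tested windows within 3000 bp of a start, of which 37.1% were higher and 9.62% lower. With IFNα in USP18KO cells 17.0% of those windows rose and 11.0% fell.

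Other genes that MLL fusions are known to bind had 40 tested windows and split, with 18 higher and 7 lower in untreated USP18KO cells and 11 higher and 4 lower with IFNα in them. The shares of all tested windows within 3000 bp of a start were 37.1% and 9.62% untreated, and 17.0% and 11.0% with IFNα. EYA1, a transcriptional coactivator and phosphatase, had 37.8 ± 2.48 CPM in untreated WT cells and 1.74 ± 0.507 CPM in untreated USP18KO cells (-4.45 ± 0.19, edgeR adjusted p = 8.26e-33). FLT3, a receptor kinase of progenitors, was lower by 1.68 ± 0.16 on the log2 scale at FLT3 -1488 (edgeR adjusted p = 6.82e-15). Nearer its start, at FLT3 -28, the mean was 48.1 ± 3.61 CPM in untreated WT and 29.0 ± 2.25 CPM in untreated USP18KO cells. CDK6, a cell cycle kinase, was higher by 0.81 ± 0.10 (edgeR adjusted p = 1.97e-10). The IFNα effect was higher in USP18KO than in WT cells at 3 of the 40 windows and lower at 1, beside 8.26% and 4.69% of all tested windows within 3000 bp of a start. The lower one was at BCL2, the inhibitor of apoptosis (-0.96 ± 0.19, edgeR adjusted p = 7.18e-05), the direction of HOXA4 +410 and HOXA9 +4403. IGF2BP2 (0.46 ± 0.13, edgeR adjusted p = 0.0109) and SATB1 (0.43 ± 0.13, edgeR adjusted p = 0.0200) went the other way. The HOXA windows stayed within -0.16 and 0.98 in the same untreated comparison.

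The monocytic markers did not move as a group. In untreated USP18KO cells 2 of 7 tested were higher and 0 lower than in WT cells, and with IFNα in USP18KO cells 2 rose and 1 fell (edgeR's quasi-likelihood test). The shares of all tested windows within 3000 bp of a start were 37.1% and 9.62% untreated, and 17.0% and 11.0% with IFNα. SPI1, which encodes the myeloid factor PU.1, carried most of the summed level, with a mean of 66.1 ± 3.11 CPM in untreated WT, 98.0 ± 0.709 in untreated USP18KO and 128 ± 1.65 CPM in USP18KO cells with IFNα. LYZ, the gene of lysozyme, had 11.7 ± 0.535, 13.5 ± 0.971 and 5.08 ± 0.758 CPM in these groups, and CD68, a macrophage marker, 24.9 ± 1.28, 20.2 ± 1.11 and 36.6 ± 4.23 CPM. The summed H3K27ac of the list, over 7 of the 8 listed genes, was 125 to 136 CPM in untreated WT cells, 133 to 139 with IFNα, 163 to 168 in untreated USP18KO cells and 199 to 199.6 with IFNα. Lymphoid markers summed to at most 9.50 CPM in any library and no erythroid marker had a window. The part of these differences in the HOXA values was not tested. By Pearson's r of log2 CPM over the 8 libraries, the windows within 1000 bp of a start most like HOXA9 -18 were those of BCAP31 (0.998), TREML2 (0.994), PHYH (0.994), SOCS2 (0.993) and MAPKAPK2 (0.993). This is a description over 4 groups of 2 libraries that share their normalisation, and 10.5% of the 22647 windows compared had an r over 0.9.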

How the data were processed

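H3K27ac ChIP-seq of 8 THP-1 libraries was analysed from the table of 151654 windows, and the 8 input libraries were not analysed here. Reads had been mapped by the authors to hg38 with Bowtie2, and HOMER counted tags within 1000 bp windows on pooled ATAC-seq peaks, as the study's methods and the submitters' processing notes state (versions not given in the sources used here). The deposited values are estimated counts of tags, not normalized, in steps of 0.5, and were rounded to whole counts. Overlapping windows share tags.

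Windows with at least 10 counts in at least 2 libraries (123276) were fitted in edgeR 4.0.16 (R 4.3.3) by the quasi-likelihood test with TMM scaling and 1 mean per group over all 8 libraries, tested on simulated data first. Called windows had an adjusted p under 0.05, and, where stated, a change over 2-fold. CPM values are counts scaled to the library size times its TMM factor. Window sequence came from hg38 and promoters from RefSeq (GRCh38.p14). The members, gene lists and motifs were chosen with earlier results of these data known. Named are the start window of each member, called members, the highest members, and up to 4 genes per list by adjusted p. The lists were HOXA neighbours, other HOX clusters, TALE cofactors, the MLL complex, other MLL-fusion targets and Polycomb proteins. The study calls the libraries of a group biological replicates and independent samples, without saying whether these were separate cultures, and p-values measure the spread between them. Alternatives were DESeq2 1.42.0, other scalings and filters, a replicate block and leaving out each library.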

Additional observations from a re-analysis of the deposited data

Results flagged for a closer look

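The IFNα effect differed between WT and USP18KO cells, by a test of the difference itself (edgeR's interaction contrast over all windows), at 5 HOXA windows. On the log2 scale the effect in USP18KO cells was lower than that in WT cells by a difference of -1.12 at HOXA4 +410, -1.29 at HOXA5 -115, -1.10 at HOXA7 +533, -0.75 at HOXA9 +4403 and -0.59 at HOXA9 +3940. In WT cells the effect at these windows lay between -0.15 and 0.14, and in USP18KO cells between -1.27 and -0.73. The untreated USP18KO libraries stood above the untreated WT libraries at all 5. Of the monocytic markers, CD68 had a higher IFNα effect in USP18KO than in WT cells and LYZ a lower one, and their part in the HOXA difference was not tested. At HOXA5 -115 the difference became -0.73 without WT replicate 1 with IFNα.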

How the results depend on the processing

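The counts of members past 2-fold and the adjusted p were 0 in every contrast except the IFNα effect in USP18KO cells (2 lower) and its difference from that in WT cells (3 lower). Without the fold threshold these became 8 and 5 lower, with 8 higher in untreated USP18KO against WT cells and 3 higher and 3 lower with IFNα. Taking 1 window per chain of overlapping members gave 1 lower for IFNα in USP18KO cells, with a median of -0.31, and a median of -0.19 for the difference. DESeq2 gave 1 lower for the difference. Library totals in place of TMM gave 2 lower for USP18KO against WT with IFNα, and medians of -0.61 for IFNα in USP18KO cells, 0.30 and -0.32 for USP18KO against WT untreated and with IFNα, and -0.56 for the difference. TMM over windows near starts, chosen after seeing the data, gave medians of -0.52, 0.13 and -0.39 for the first 3 of these and 2 lower for USP18KO against WT with IFNα. Tag directory totals, also chosen after seeing the data, gave a median of -0.55 for IFNα in USP18KO cells. Without the filter, which admits MEIS1, the medians were -0.61 for IFNα in USP18KO cells and -0.58 for the difference. Over the 16 HOXA windows alone, without MEIS1, that setting gave -0.49 and -0.42. The cause of the shifts in the other settings was not tested beyond the scaling itself.

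Leaving out 1 library at a time, the lower count ranged from 1 to 3 for IFNα in USP18KO cells, from 0 to 3 for the difference, from 0 to 2 for USP18KO against WT with IFNα and from 0 to 1 for IFNα in WT cells, and the higher count from 0 to 1 for USP18KO against WT untreated, for the same with IFNα and for the difference. The medians ranged from -0.55 to -0.47, from -0.53 to -0.40, from -0.16 to 0.10, from -0.12 to -0.04 and, for USP18KO against WT untreated, from 0.44 to 0.56. The WT call was HOXA10 +320 without WT replicate 2 with IFNα (log2 -3.21), where the lone library held 2 tags and was assumed to vary like the other groups.

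The labels do not say whether same-numbered libraries shared a culture or day. Over all tested windows, deviations of same-numbered libraries correlated by 0.00188 to 0.0580. With a replicate block the counts of members past 2-fold stayed at 2 and 3 lower, those past the adjusted p alone at 8 lower for IFNα in USP18KO cells and 8 higher for untreated USP18KO cells, and the median for IFNα in USP18KO cells was -0.49. No result changed direction with a call on both sides. Depth limits the weak windows most, since a tested member held as few as 2 tags in 1 library.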
